A study of Homo sapiens with 8 samples.

Results

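The zinc finger genes of human chromosome 19 were followed as a group of 191 genes across 4 drug treatments of HCT-116, a long-established line of human colorectal cancer cells. A gene entered the group when its transcript lay on chromosome 19, its symbol was ZNF followed by digits, and its count averaged at least 20 over the 8 libraries. This kept 191 of 233 such symbols, among 23873 genes in all. Members were thus selected on their mean count, so levels are a description. No contrast between treatments enters the rule by design, but the mean is of raw counts, not scaled for depth. The deepest library, DMSO then 3-MB-PP1 replicate 1, weighs most in it, so genes high there entered more easily. The family was also taken up with earlier results of these data known. Just inside the minimum stood ZNF599, ZNF550 and ZNF568, with mean counts of 21.75, 22.4 and 22.8, and just outside it ZNF439 and ZNF846 with 16.4 each and ZNF93 with 14.9. All 191 passed the filter on low counts that preceded the tests.

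Every group received a first agent for 12 h, washes with PBS, and a second agent for 4 h. The groups were 40 µM 5-fluorouracil (5-FU) then 2.5 µM 3-MB-PP1, 5-FU then DMSO, DMSO then 3-MB-PP1, and DMSO then DMSO (the vehicle), with 2 libraries each. 5-FU is an antimetabolite that blocks thymidylate synthase. 3-MB-PP1 is a bulky ATP analogue that inhibits kinases engineered to accept it. Which engineered kinase the cells carried is not in the labels. Neither is whether replicates were separate cultures, so each p-value reflects only the spread between libraries, which may be technical. Libraries of total RNA held 10579220 to 50494718 gene counts, the deepest being 1 of the 2 DMSO then 3-MB-PP1 libraries, and the 191 genes took 0.306% to 0.339% of them. All 8 epithelial markers were above 1 RPKM, their summed level being 2437 to 2458 RPKM after 5-FU then 3-MB-PP1, 2802 to 2841 after 5-FU then DMSO, 1669 to 1695 after DMSO then 3-MB-PP1 and 1551 to 1621 in the vehicle. Of the markers of other cells, 5 of 6 fibroblast, 4 of 5 leukocyte and 3 of 4 endothelial genes stayed under 1 RPKM in every library, with COL1A2, DCN, LUM and CDH5 at 0.

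Most zinc finger genes of chromosome 19 encode proteins with arrays of C2H2 fingers, each of which contacts a few bases of DNA, and many carry a KRAB domain that recruits the co-repressor TRIM28 (KAP1). TRIM28 in turn brings the histone methyltransferase SETDB1 and heterochromatin protein 1, which together silence transposable elements in many cell types. The genes arose by repeated tandem duplication and so lie in clusters, and their mRNAs are known as short-lived. Half-lives were not measured in these libraries, and that name is used here as background alone.

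By position, the genes fell into 9 clusters on hg19 with 5 to 50 members, a cluster being opened by a gap of over 1 Mb between neighbouring starts. They held 184 of the 191 genes, and 7 were scattered. Cluster 1 (chr19:2819872-2944969) held 5 members, cluster 2 (chr19:7069471-9879410) 13, cluster 3 (chr19:11594242-12740676) 20 and cluster 4 (chr19:19779663-24312654, beside the centromere) 25. On the long arm lay cluster 5 (chr19:35168567-35454953) with 5 members, cluster 6 (chr19:36673187-38270230) with 16, cluster 7 (chr19:44037340-45579688) with 17, cluster 8 (chr19:52074531-54083523) with 33 and cluster 9 (chr19:55987699-58992597, near the telomere) with 50. The plus strand carried 109 members and the minus strand 82. In their kept transcripts the median length was 3231 bases and the median genomic span 19118 bases.

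Levels were low for most of the family. In the vehicle libraries the median was 2.94 RPKM, against 7.23 RPKM over all 15714 genes tested, with 15 members above 10 RPKM and 36 below 1. ZNF146, which consists almost wholly of fingers and lacks a KRAB domain, stood highest with 63.1 and 63.2 RPKM. ZNF121 followed with 51.1 and 56.4 RPKM, and its libraries did not overlap with those of ZNF146. The next places were held by ZNF787 with 23.7 and 23.4, ZNF581 with 18.5 and 19.9, and ZNF579 with 17.8 and 19.99 RPKM, and the last pair overlapped. In their kept transcripts ZNF146 overlaps ZNF565, on the opposite strand, only at chr19:36705504-36705986. No source used here gives the strand setting of the counting, so reads within that short stretch cannot be told apart.

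5-FU alone (5-FU then DMSO over the vehicle) moved fewer of these genes than of genes at large, and the direction differed between clusters. Of the 191, 37 rose and 14 fell, together 26.7%, against 43.9% of all genes tested that were called in either direction (edgeR quasi-likelihood test, Benjamini-Hochberg adjusted p under 0.05). Upward calls were 19.4% of members, against 21.2% of all genes, and downward calls 7.33% of members, against 22.6%. The median count was 179.5 for members and 393 for all genes, with median standard errors of 0.14 and 0.10 on the log2 scale, and the part of depth in the lower share of calls was not tested. The median change of the members was 0.06, against 0.00 for all genes, and 114 of the 191 values were positive. In the rest of the chromosome, 283 of 887 other genes rose and 127 fell, while among 198 ZNF genes of other chromosomes 48 rose and 40 fell. Without DMSO then DMSO replicate 1, 23 members rose, and DESeq2 gave 22. Scaled to the ERCC spike-ins, whose share was 4.16% and 2.52% in the vehicle libraries, no member was called in this comparison or in those of 3-MB-PP1 alone and after 5-FU. Over all 15714 genes tested, that scaling called only 243, 112 and 53 in these comparisons.

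Cluster 2 held 8 of the 37 members that rose and none that fell, and all 13 of its values were positive with a median of 0.27. Those rises were 61.5% of its members, against 21.2% of all genes. ZNF558, ZNF317, ZNF699, ZNF559 and ZNF177 rose as 5 neighbours in a row (chr19:8920382-9493293), and ZNF121, ZNF561 and ZNF562 as another 3 (chr19:9676292-9785776). Neighbours are here consecutive members of the group, and genes outside the group can lie between them. ZNF559 and ZNF177 overlap each other on the same strand and share a read-through transcript, so their counts are not independent. In ZNF561 the 2 libraries of 5-FU then DMSO had 70.7 and 76.2 normalized CPM (counts scaled to library size by TMM), against 42.6 and 39.8 CPM in the vehicle. Those groups lay far apart, a log2 change of 0.84 ± 0.07 (SE, n = 2 libraries a group, adjusted p = 6.92e-10 by edgeR). ZNF561 had 69.0 and 65.5 CPM with both drugs and 38.9 and 43.2 CPM with 3-MB-PP1 alone, so that the 4 libraries that received 5-FU stood above the 4 that did not.

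Cluster 4, whose members are largely specific to primates, went the other way. None of its 25 members rose, against 21.2% of all genes, 20 of 25 values were negative and the median was -0.20. The 6 that fell (ZNF85, ZNF100, ZNF254, ZNF675, ZNF708 and ZNF714) were 24% of its members, near the 22.6% of all genes. For ZNF100 the 5-FU then DMSO libraries had 15.6 and 18.2 CPM, against 37.4 and 37.4 CPM in the vehicle. It fell by 1.14 ± 0.10 on the log2 scale (SE, n = 2 a group, edgeR adjusted p = 4.01e-10), and it overlaps a transcript of the opposite strand, LOC641367. ZNF85 had 1.51 and 1.74 CPM after 5-FU then DMSO, against 4.44 and 3.58 CPM in the vehicle, a log2 change of -1.29 ± 0.25 (edgeR adjusted p = 0.000161, n = 2 a group). These were the only members over 2-fold lower among those called. ZNF254 (-0.76) and, in cluster 3, ZNF443 (-0.68) came next, and 57.7% of the 32-base words of the ZNF443 transcript also occur in other genes, so its count is uncertain, and its call was lost without 5-FU then DMSO replicate 1 (edgeR adjusted p = 0.0556). ZNF91, the repressor of SVA elements that sits in cluster 4, had 33.5 and 37.8 CPM after 5-FU then DMSO, against 40.8 and 35.6 CPM in the vehicle, and these overlapped.

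The other clusters lay between these. Cluster 7 had 7 members that rose and 2 that fell with a median of 0.26, cluster 3 had 5 and 2 (median 0.12), cluster 8 had 7 and 1 (0.06), and cluster 9 had 8 and 1 (0.07). The rises were 41.2% of members in cluster 7, 25% in cluster 3, 21.2% in cluster 8 and 16% in cluster 9. Over all genes 21.2% rose, so clusters 3, 8 and 9 lay near that share. In cluster 7, ZNF576, ZNF428 and ZNF283 rose as consecutive members, as did ZNF234, ZNF226 and ZNF227, and in cluster 8 ZNF600, ZNF28 and ZNF468 did. Cluster 6 had 1 call among 16 members, and that call had the highest value of all. ZNF383 had 10.2 and 9.84 CPM after 5-FU then DMSO, against 5.53 and 4.65 CPM in the vehicle, a log2 change of 0.98 ± 0.16 (SE, n = 2 a group, edgeR adjusted p = 1.16e-05). It had 9.89 and 9.34 CPM with both drugs and 4.95 and 5.64 CPM with 3-MB-PP1 alone, and the last pair overlapped with the vehicle.

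ZNF600 had 20.5 and 24.4 CPM after 5-FU then DMSO, against 13.5 and 10.4 CPM in the vehicle (log2 change 0.91 ± 0.12, edgeR adjusted p = 1.14e-06, n = 2 a group). ZNF440 and ZNF441 of cluster 3 rose by 0.79 and 0.77 on the log2 scale. No called member was more than 2-fold higher with 5-FU alone. Among members lower after 5-FU outside cluster 4, ZNF180 of cluster 7 had 15.3 and 14.9 CPM after 5-FU then DMSO, against 24.8 and 21.4 CPM in the vehicle (log2 change -0.62 ± 0.12, edgeR adjusted p = 0.000124, n = 2 a group). In bulk RNA, fewer cells of a kind and less RNA per cell cannot be told apart.

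**Figure D1:**
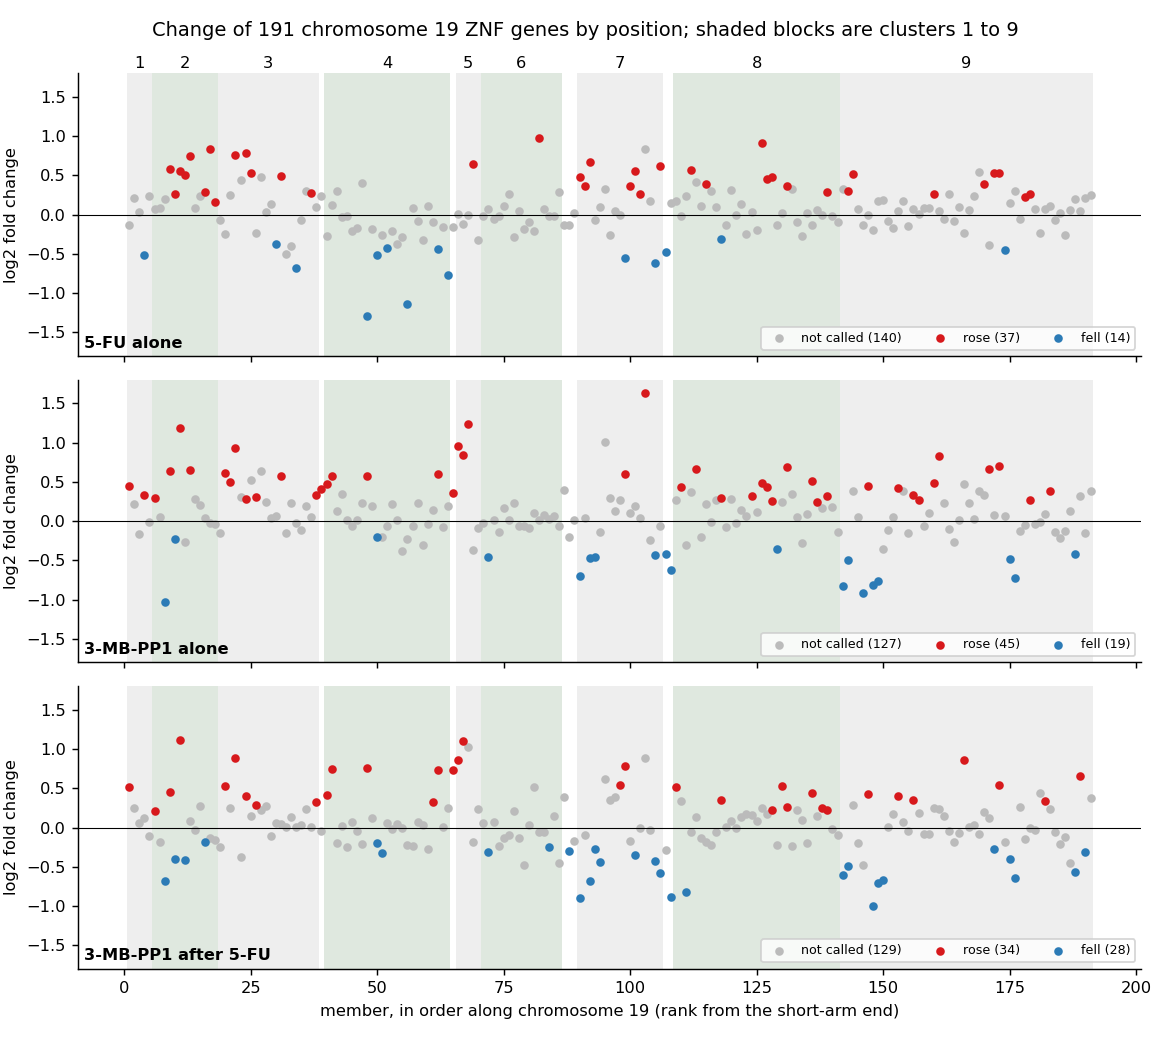
Log2 fold change (vertical axis) of each of the 191 genes in order along chromosome 19 (horizontal axis), with 5-FU alone, 3-MB-PP1 alone and 3-MB-PP1 after 5-FU from top to bottom; shaded blocks are clusters 1 to 9, red points rose, blue points fell and grey points were not called (edgeR adjusted p of 0.05). In the top panel cluster 2 lies above 0 throughout, and 6 blue points lie in cluster 4; in the lower panels clusters 3, 5 and 8 hold red points with at most 1 blue point each, and cluster 9, the largest, holds both.

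3-MB-PP1 alone (DMSO then 3-MB-PP1 over the vehicle) raised more of the family than it lowered. Of the 191, 45 rose and 19 fell, 33.5% in all, against 28.5% of all genes tested. Upward calls made up 23.6% of members, against 11.6% of all genes, and downward calls 9.95%, against 16.9%. The median member change was 0.09, against -0.01 for all genes. The other genes of the chromosome had 52 that rose and 151 that fell among 887, and the 107 other genes that lie inside the clusters had 10 and 14. Among the 198 ZNF genes of other chromosomes, 40 rose and 49 fell. The direct tests here were those of single genes, and the difference between these sets was not tested. The count that rose was 29 without DMSO then 3-MB-PP1 replicate 1 (the deepest library), 25 without DMSO then DMSO replicate 2, and 23 by DESeq2.

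Rises with 3-MB-PP1 alone lay in every cluster but cluster 6, and clusters 1, 3, 4, 5 and 8 held at most 1 fall each. In cluster 1, 2 of 5 members rose and none fell, and in cluster 4, 4 of 25 rose and 1 fell. The share that rose in cluster 4 was 16%, near the 11.6% of all genes. In cluster 3, 7 of 20 members rose and none fell (median 0.27), in cluster 8, 11 of 33 rose and 1 fell (median 0.24), and in the small cluster 5, 3 of 5 rose and none fell (median 0.84). Those rises were 35%, 33.3% and 60% of members, against 11.6% of all genes. ZNF302, ZNF181 and ZNF599, the 3 that rose in cluster 5, are consecutive members (chr19:35168567-35264134). Of these, ZNF599 lay just inside the count minimum, with a mean count of 21.75, and its entry leaned on the group where it was high. ZNF302 had 20.1 and 18.5 CPM after DMSO then 3-MB-PP1, against 9.97 and 10.1 CPM in the vehicle, a log2 change of 0.96 ± 0.11 (SE, n = 2 a group, edgeR adjusted p = 5.7e-07). ZNF181 had 13.1 and 14.5 CPM after DMSO then 3-MB-PP1, against 8.64 and 6.48 CPM in the vehicle (log2 change 0.84 ± 0.15, edgeR adjusted p = 9.05e-05, n = 2 a group). Neither was called with 5-FU alone, where their changes were 0.01 and -0.11.

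ZNF233 of cluster 7 and ZNF599 of cluster 5 rose furthest, and both had low counts. ZNF233 had 1.62 and 1.88 CPM after DMSO then 3-MB-PP1, against 0.701 and 0.381 CPM in the vehicle, where it rested on 9 and 5 counts (log2 change 1.63 ± 0.38, edgeR adjusted p = 0.00196, n = 2 a group). ZNF599, with 9 counts in each vehicle library, rose by 1.24 ± 0.39. ZNF699 of cluster 2 was better measured, with 11.2 and 10.2 CPM after DMSO then 3-MB-PP1, against 4.98 and 4.57 CPM in the vehicle (log2 change 1.19 ± 0.14, edgeR adjusted p = 7.62e-07, n = 2 a group). These were the only called members over 2-fold higher with 3-MB-PP1 alone. ZNF441 rose by 0.93 in the same comparison, with its neighbours ZNF627 and ZNF823 also among those that rose. ZNF274, which guides SETDB1 to the 3' ends of other zinc finger genes and is thus a regulator of the family itself, rose by 0.38 ± 0.14 (edgeR adjusted p = 0.0454), with 12.0 and 10.3 CPM after DMSO then 3-MB-PP1, against 8.41 and 9.22 CPM in the vehicle. The calls of ZNF233 (adjusted p = 0.0625 by edgeR without DMSO then DMSO replicate 2), ZNF599 (0.117 without the same library) and ZNF274 (0.468 without DMSO then 3-MB-PP1 replicate 1) rested on single libraries, and ZNF599 and ZNF274 were not called by DESeq2.

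Falls with 3-MB-PP1 alone took 4 of 17 members of cluster 7 (23.5%), 8 of 50 of cluster 9 (16.0%) and 2 of 13 of cluster 2 (15.4%), so that clusters 9 and 2, each taken whole, lay near the 16.9% of all genes. A gap of 0.5 Mb split cluster 9 into unlike parts. Falls took 5 of 14 members from ZNF628 to ZNF835 (35.7%) and 3 of 36 from ZNF264 to ZNF446 (8.33%). ZNF581, ZNF787, ZNF784 and ZNF628, named below, all lie in the first part. In cluster 9, 10 members rose. ZNF581 had 13.9 and 13.3 CPM after DMSO then 3-MB-PP1, against 23.2 and 24.99 CPM in the vehicle (log2 change -0.81 ± 0.10, edgeR adjusted p = 1.13e-06, n = 2 a group). ZNF787 had 27.9 and 26.2 CPM after DMSO then 3-MB-PP1, against 46.6 and 46.1 CPM in the vehicle, a log2 change of -0.76. ZNF784 (-0.92) and ZNF628 (-0.83) fell in the same cluster, and ZNF414 of cluster 2 fell by 1.03 ± 0.19, the only called member over 2-fold lower. Without DMSO then DMSO replicate 2 the edgeR adjusted p of ZNF784 was 0.0832, and without DMSO then 3-MB-PP1 replicate 1 that of ZNF628 was 0.0697. ZNF146, the most abundant member, had 184 and 180.2 CPM after DMSO then 3-MB-PP1, against 249 and 249 CPM in the vehicle (log2 change -0.45 ± 0.06, edgeR adjusted p = 1.33e-06, n = 2 a group).

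3-MB-PP1 after 5-FU (5-FU then 3-MB-PP1 over 5-FU then DMSO) gave 34 members that rose and 28 that fell, together 32.5%, against 32.9% of all genes tested. The share called was near the background, and the member median was 0.01, against 0.00 for all genes. Clusters 3, 5 and 8 again held rises with at most 1 fall, 5 and 0, 2 and 0, and 8 and 1, as did cluster 1 with 1 and 0. Those rises were 25%, 40%, 24.2% and 20% of members, against 15.7% of all genes. Falls outnumbered rises in clusters 2 (4 and 3), 6 (2 and 0), 7 (7 and 2) and 9 (10 and 7). In cluster 7 they were 41.2% of its members, and in cluster 9 they were 20%, near the 17.2% of all genes. ZNF283, ZNF45 and ZNF221 fell as consecutive members in cluster 7 (chr19:44331473-44471752), and ZNF581, ZNF787 and ZNF444 in cluster 9 (chr19:56154986-56672262). They are not all adjacent genes. ZNF404, below the count minimum, lies between ZNF283 and ZNF45, and ZNF581 ends at 56156989 while ZNF787 starts at 56598732. Leaving out 5-FU then 3-MB-PP1 replicate 1 gave 22 that rose and 18 that fell, leaving out 5-FU then DMSO replicate 1 gave 21 that rose, and leaving out 5-FU then 3-MB-PP1 replicate 2 or 5-FU then DMSO replicate 2 gave 16 that fell, while DESeq2 gave 22 and 12.

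ZNF699 had 15.7 and 14.7 CPM after 5-FU then 3-MB-PP1, against 6.78 and 7.26 CPM after 5-FU then DMSO, a log2 change of 1.11 ± 0.13 (SE, n = 2 a group, edgeR adjusted p = 5.14e-07). ZNF181 had 15.7 and 14.4 CPM after 5-FU then 3-MB-PP1, against 8.03 and 5.997 CPM after 5-FU then DMSO (log2 change 1.11 ± 0.15, edgeR adjusted p = 4.05e-06, n = 2 a group). These 2 were the called members over 2-fold higher. ZNF441 (0.89), ZNF302 (0.87) and ZNF419 (0.87) followed, and ZNF91 rose by 0.32 ± 0.08 (edgeR adjusted p = 0.00416), with 45.2 and 44.0 CPM after 5-FU then 3-MB-PP1, against 33.5 and 37.8 CPM after 5-FU then DMSO. Without 5-FU then DMSO replicate 1 the edgeR adjusted p was 0.192 for ZNF419 and 0.0839 for ZNF91.

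Downward, ZNF581 had 10.2 and 10.8 CPM after 5-FU then 3-MB-PP1, against 20.2 and 21.9 CPM after 5-FU then DMSO (log2 change -1.005 ± 0.12, edgeR adjusted p = 3.17e-07, n = 2 a group). ZNF576 had 6.80 and 5.40 CPM after 5-FU then 3-MB-PP1, against 11.1 and 11.6 CPM after 5-FU then DMSO (log2 change -0.89 ± 0.15, edgeR adjusted p = 5.11e-05, n = 2 a group). ZNF473, whose protein is known as a component of replication-dependent histone mRNA 3' end processing and which lies outside the clusters, had 16.0 and 15.7 CPM after 5-FU then 3-MB-PP1, against 28.1 and 30.3 CPM after 5-FU then DMSO (log2 change -0.88 ± 0.10, edgeR adjusted p = 3.49e-07, n = 2 a group). In each of these 3 genes all libraries with 3-MB-PP1 lay below all libraries without it, with or without 5-FU. ZNF649 (-0.82) and ZNF787 (-0.70) completed the largest falls.

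**Figure D2:**
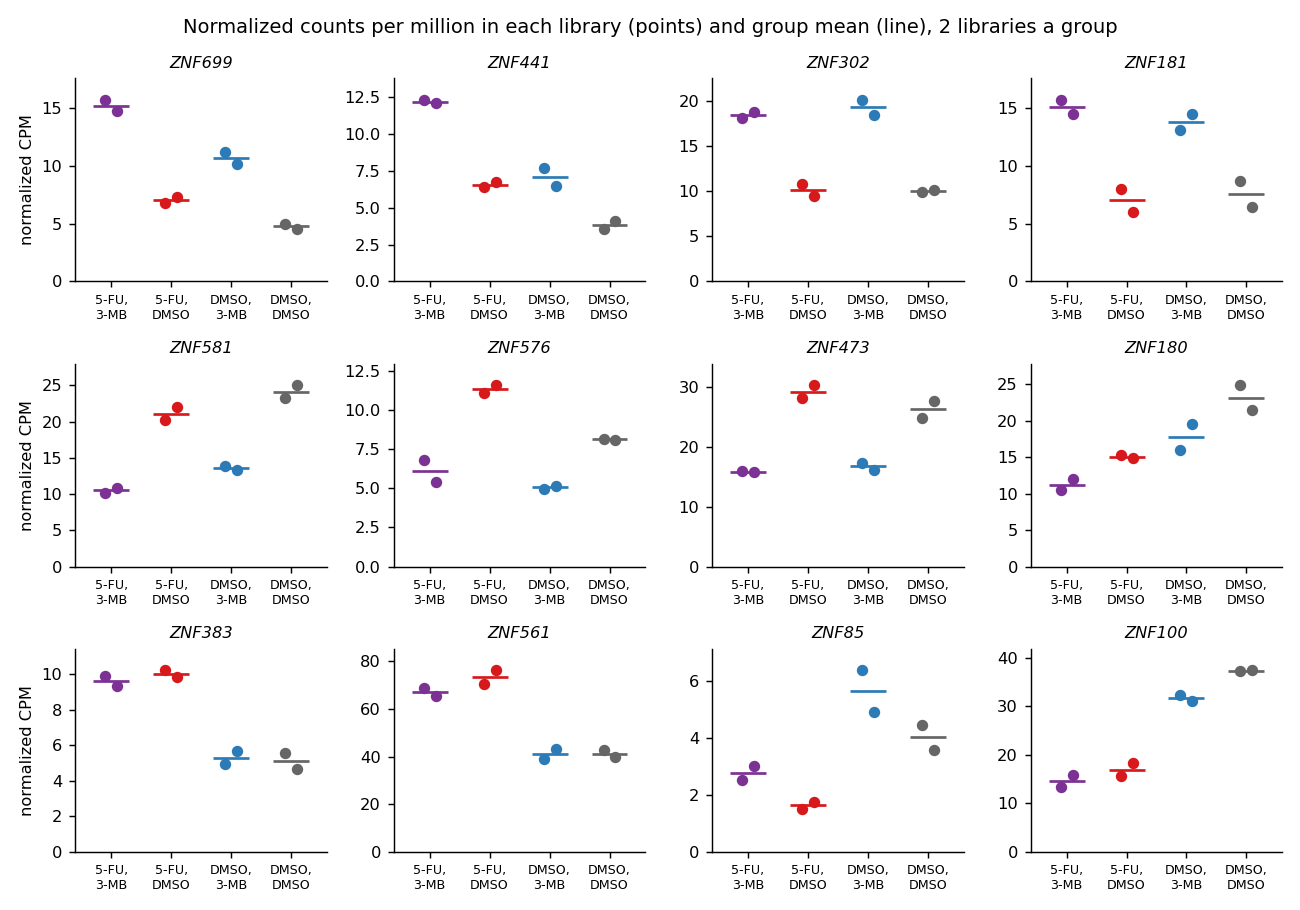
Normalized CPM (vertical axis, from 0) of 12 named genes in each of the 8 libraries; groups run from 5-FU then 3-MB-PP1 on the left to DMSO then DMSO on the right, points are libraries and lines are the means of 2. The top row shows genes that rose with 3-MB-PP1, the middle row genes that fell with it, and the bottom row genes picked from the 5 largest rises and 5 largest falls with 5-FU alone, such as ZNF100 with 15.6 and 18.2 CPM after 5-FU then DMSO, against 37.4 and 37.4 in the vehicle.

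Many calls for 3-MB-PP1 were shared between cells with and without 5-FU, in the family as among all genes, and these comparisons have no library in common. Of the members that rose, 26 did so in both, which is 76.5% of the 34 after 5-FU and 57.8% of the 45 without it, against 41.3% and 56.0% over all genes tested. Of those that fell, 16 did so in both, 57.1% of the 28 after 5-FU and 84.2% of the 19 without it, against 59.7% and 60.8% over all genes tested. No member was called in opposite directions. Across the 191 genes, which share the libraries and are not independent replicates, the log2 changes correlated with a Pearson r of 0.80 and a Spearman rho of 0.75, against 0.73 and 0.60 over all genes tested. The sign was the same in 140 of 191 (73.3%), near the 71.7% of all genes tested.

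Tested directly, no member's response to 3-MB-PP1 differed between cells with and without 5-FU at an adjusted p under 0.05 (0 of 191 by edgeR, by DESeq2 and by limma-voom), while 4.1% of all genes did by edgeR. At an unadjusted edgeR p under 0.05, 15 of 191 members differed, against 2804 of all 15714 genes tested, a larger share. Adjusted calls numbered 3 without the filter on low counts, 3 without DMSO then 3-MB-PP1 replicate 2, and 1 each without 5-FU then DMSO replicate 2 or DMSO then DMSO replicate 2. The lowest adjusted p belonged to ZNF226 of cluster 7 (0.0596), which had 12.98 and 13.2 CPM after 5-FU then 3-MB-PP1, 16.3 and 17.2 after 5-FU then DMSO, 13.1 and 12.5 after DMSO then 3-MB-PP1, and 12.0 and 10.7 in the vehicle. The median standard error of this difference was 0.20 on the log2 scale, so small differences were not detectable at this depth. ZNF160 (-0.42, adjusted p = 0.08) and ZNF649 (-0.52, adjusted p = 0.134 by edgeR) came next.

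**Figure D3:**
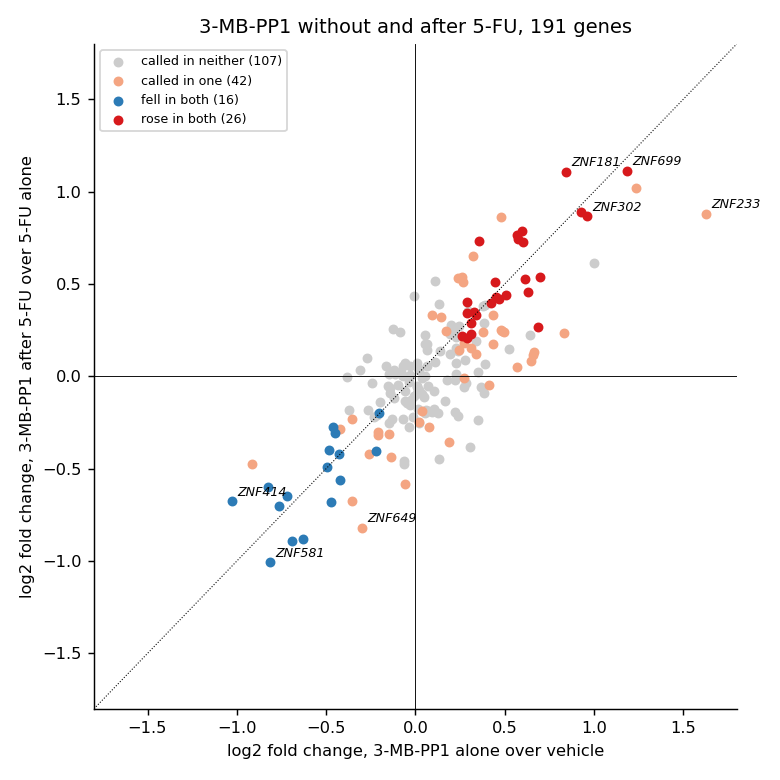
Log2 fold change after 5-FU (vertical axis, 5-FU then 3-MB-PP1 over 5-FU then DMSO) against that without 5-FU (horizontal axis, DMSO then 3-MB-PP1 over the vehicle), 1 point a gene; red points rose in both, blue points fell in both, orange points were called in 1 and grey in neither, and the dotted line marks equal change. The 26 red and 16 blue points lie along that line, and no coloured point was called in opposite directions.

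Set against the vehicle, both drugs together gave the largest number of member calls, 50 that rose and 23 that fell, 38.2%, against 50.2% of all genes tested. Scaled to the ERCC spike-ins, 2 members were called, both upward, and DESeq2 called 48 (33 rose and 15 fell). Over all genes these settings called 427 of 15714 and 6113 of 20921. The log2 change with both drugs is the sum of those with 5-FU alone and with 3-MB-PP1 after 5-FU. Where these 2 share a direction, that with both drugs follows, so 4 calls are not 4 separate results. ZNF441 is an example of a gene that rose in all 4 comparisons: it had 12.3 and 12.0 CPM after 5-FU then 3-MB-PP1, 6.38 and 6.72 after 5-FU then DMSO, 7.66 and 6.49 after DMSO then 3-MB-PP1, and 3.58 and 4.11 in the vehicle. The groups with 1 drug overlapped each other, the group with both stood above them, and the vehicle stood below them. Its log2 change with both drugs was 1.66 ± 0.16 (SE, n = 2 a group, edgeR adjusted p = 5.24e-09). ZNF558, ZNF699, ZNF440, ZNF468, ZNF160, ZNF761 and ZNF211 shared these 4 upward calls, and the share of all genes with them was not counted. ZNF440 had 57.6 and 54.9 CPM after 5-FU then 3-MB-PP1, 43.9 and 41.2 after 5-FU then DMSO, 30.4 and 29.3 after DMSO then 3-MB-PP1, and 25.6 and 23.6 in the vehicle, with no overlap between any of the 4 groups.

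ZNF180 and ZNF714 were the members that fell in all 4 comparisons, the direction with both drugs again following from 2 of the others. The matching share of all genes was not counted. ZNF180 had 10.4 and 12.0 CPM after 5-FU then 3-MB-PP1, 15.3 and 14.9 after 5-FU then DMSO, 16.0 and 19.6 after DMSO then 3-MB-PP1, and 24.8 and 21.4 in the vehicle, a log2 change of -1.04 ± 0.13 with both drugs (SE, n = 2 a group, edgeR adjusted p = 2.26e-07). ZNF233 (1.72), ZNF699 (1.67), ZNF440 (1.19) and ZNF600 (1.17) rose furthest beside ZNF441, while ZNF100 (-1.36), ZNF581 (-1.20), ZNF114 (-0.76) and ZNF473 (-0.73) had large falls. No call was made for 83 members in any of the 4 comparisons, a number given without a matching share over all genes, which was not counted. Among them was ZNF331, with 3.80 and 2.70 CPM after 5-FU then 3-MB-PP1, 3.55 and 3.36 after 5-FU then DMSO, 3.43 and 3.10 after DMSO then 3-MB-PP1, and 2.96 and 4.42 in the vehicle.

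The 5-FU alone and 3-MB-PP1 alone changes are both taken against the same vehicle libraries, so their likeness is not a result, and the calls are given side by side. The matching shares over all genes tested were not counted, so these numbers of members describe the family alone. Both were upward for 14 members and both downward for 3 (ZNF714, ZNF180 and ZNF114). ZNF317, ZNF576, ZNF283 and ZNF579 rose with 5-FU and fell with 3-MB-PP1, and ZNF57, ZNF85, ZNF675, ZNF225 and ZNF766 fell with 5-FU and rose with 3-MB-PP1. ZNF283 had 13.6 and 14.1 CPM after 5-FU then 3-MB-PP1, 22.0 and 22.4 after 5-FU then DMSO, 9.86 and 10.6 after DMSO then 3-MB-PP1, and 12.6 and 15.3 in the vehicle. With both drugs it thus lay within the vehicle's range (log2 change -0.01 ± 0.12). ZNF675 of cluster 4 was called the other way in each, with 7.52 and 7.87 CPM after 5-FU then 3-MB-PP1, 5.13 and 4.20 after 5-FU then DMSO, 9.65 and 9.21 after DMSO then 3-MB-PP1, and 6.15 and 6.40 in the vehicle.

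**Figure D4:**
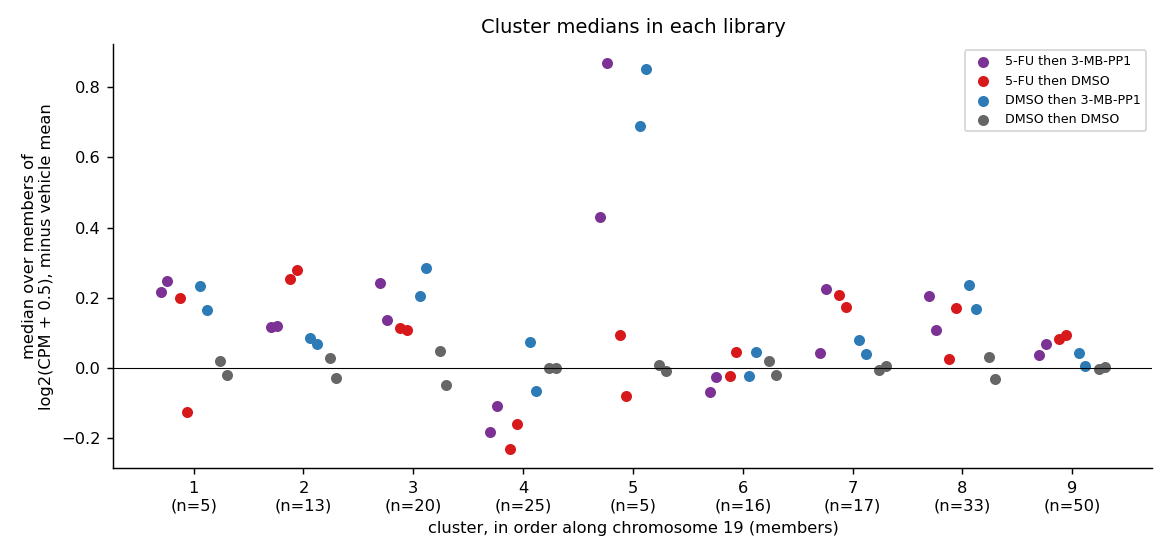
Median over the members of each cluster of log2(CPM + 0.5) minus that gene's vehicle mean (vertical axis), 1 point a library, for clusters 1 to 9 (horizontal axis, with the number of members); colours mark the 4 groups, with 5-FU then 3-MB-PP1 leftmost and the vehicle rightmost in each. In cluster 4 the 4 libraries that received 5-FU lie between -0.23 and -0.11, below the vehicle, in cluster 2 they lie above it, and in cluster 5 the 4 libraries that received 3-MB-PP1 lie between 0.43 and 0.87.

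The single libraries show the same order. In cluster 4 the summed level of the 25 members was 68.8 and 74.5 RPKM after 5-FU then 3-MB-PP1 and 63.4 and 66.3 after 5-FU then DMSO, below the 88.4 and 84.1 RPKM after DMSO then 3-MB-PP1 and the 79.4 and 78.3 RPKM in the vehicle. In cluster 5 the 5 members summed to 16.0 and 16.2 RPKM after 5-FU then 3-MB-PP1, 10.9 and 9.41 after 5-FU then DMSO, 14.9 and 16.1 after DMSO then 3-MB-PP1, and 9.70 and 9.07 in the vehicle. Cluster medians are descriptions, since neighbours share sequence and libraries. Scaling to the ERCC spike-ins instead of TMM shifted the median of all genes by 0.12 with 5-FU alone, 0.20 with 3-MB-PP1 alone and -0.12 with 3-MB-PP1 after 5-FU. That scaling turned the sign of the medians of clusters 5 and 6 with 5-FU alone and of cluster 4 and the whole family with 3-MB-PP1 after 5-FU. It turned that of no other cluster in these comparisons, but some medians came close to 0. After 5-FU, those of clusters 1, 3 and 8 went from 0.12, 0.14 and 0.13 to 0.0013, 0.035 and 0.0019, while that of cluster 5 was still 0.74. With 5-FU alone that of cluster 4 went from -0.20 to -0.07, and that of cluster 2 from 0.27 to 0.38.

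Promoters of the family held some short sequences more often than promoters of other tested genes, and others at a similar or lower share. In windows of 300 bases (250 before to 50 after the start, RefSeq on GRCh38.p14), searched on both strands without removing overlaps between motifs, 167 of the 191 genes had an entry. CGGAAG, the core that ETS factors bind, was in 59.9% of them, against 30.5% of promoters of other tested genes and 19.9% of all 27305 promoters. ACTACA, the start of the element known to be bound by ZNF143 (a zinc finger activator encoded elsewhere in the genome), was in 29.3%, against 8.71% and 8.95%. The CCAAT box was in 54.5%, against 36.1% of promoters of other tested genes and 35.7% of all. GGGCGG, the GC box, was in 70.7%, close to the 67.9% of other tested genes, against 44.6% of all promoters. TATAAA was in 2.40%, against 6.24% of other tested genes and 12.0% of all. AAGATGG (YY1) was in 8.38% and TGACGT (CRE) in 12.0%, against 7.36% and 11.2% of other tested genes. CACGTG (E-box) was in 4.79% and TCGCGC (E2F) in 18.6%, against 9.97% and 21.0%.

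Windows with ACTACA were spread unevenly by cluster and by response to 3-MB-PP1. ACTACA was not singled out beforehand among the sequences searched, and others also differed by call. With 5-FU alone, CCAAT was in 84.6% of windows of members that fell (n = 13) and 45.2% that rose (n = 31), and AAGATGG in 7.69% and 25.8%. With 3-MB-PP1 alone, TCGCGC was in 30% of those that rose (n = 40) and 11.8% that fell (n = 17). Clusters 6, 7 and 9 held ACTACA in 7 of 16, 10 of 14 and 25 of 44 windows, while clusters 3, 4 and 8 held ACTACA in 0 of 18, 0 of 21 and 1 of 28. Of the 16 members that fell with 3-MB-PP1 both after 5-FU and without it, 15 had a window and 10 of these (66.7%) held ACTACA. Of the 26 that rose in both, 24 had a window and 3 (12.5%) held it. In ZNF genes of other chromosomes the order was the reverse, with ACTACA in 1 of 32 windows (3.12%) of genes that fell in both and 5 of 20 (25%) of genes that rose in both. Over the other tested genes the shares were 9.16% of 1048 windows of genes that fell in both and 8.92% of 650 of genes that rose in both. Within clusters 6, 7 and 9 the contrast was smaller: with 3-MB-PP1 alone 5 rose and 9 fell among 42 members with ACTACA, and 4 rose and 4 fell among 32 without. After 5-FU these counts were 5 and 12 with it, and 2 and 6 without. Position and sequence thus moved together, and the part of either in the response was not tested.

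The stretches below show ACTACA, in capitals, with 15 bases on either side in the 10 members that fell in both comparisons, each read 5′ to 3′ on the strand that carries it; the match is a description, not a binding site. In 9 of the 10 the match begins within 150 bases upstream of the start, and in 9 the letters CCC lie within the 6 bases that follow it.
ZNF317 (chr19:9140302-9140337, + strand): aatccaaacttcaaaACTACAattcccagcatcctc
ZNF146 (chr19:36214964-36214999, - strand): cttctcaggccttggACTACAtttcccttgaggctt
ZNF283 (chr19:43827244-43827279, + strand): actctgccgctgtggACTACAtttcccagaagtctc
ZNF45 (chr19:43935289-43935324, + strand): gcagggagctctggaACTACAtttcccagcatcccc
ZNF180 (chr19:44500547-44500582, + strand): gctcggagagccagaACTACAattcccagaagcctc
ZNF628 (chr19:55476474-55476509, + strand): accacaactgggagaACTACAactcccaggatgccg
ZNF579 (chr19:55581020-55581055, + strand): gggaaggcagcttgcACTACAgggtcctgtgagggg
ZNF776 (chr19:57746683-57746718, + strand): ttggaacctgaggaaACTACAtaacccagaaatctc
ZNF586 (chr19:57769526-57769561, + strand): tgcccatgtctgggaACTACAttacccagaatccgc
ZNF584 (chr19:58408588-58408623, - strand): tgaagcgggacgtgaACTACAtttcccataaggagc

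The 3 members that rose in both and held ACTACA are given in the same way, ZNF225 with a pair of matches. In all 3 the first match begins within 150 bases upstream of the start, and in 2 CCC lies within the 6 bases that follow. Neither feature was thus confined to members that fell.
ZNF554 (chr19:2819822-2819857, - strand): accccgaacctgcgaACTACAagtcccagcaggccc
ZNF225 (chr19:44113240-44113275, - strand): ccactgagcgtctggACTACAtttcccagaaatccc
ZNF225 (chr19:44113312-44113347, - strand): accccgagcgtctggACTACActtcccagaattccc
ZNF264 (chr19:57191355-57191390, + strand): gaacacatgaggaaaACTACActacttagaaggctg

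The whole windows of ZNF302 and ZNF181, neighbours in cluster 5 that rose with 3-MB-PP1 in both settings, hold no ACTACA, while that of ZNF599 beside them, which rose with 3-MB-PP1 alone, does hold it. Capitals mark the ETS core, read here as CTTCCG on the gene's own strand, which each holds once.
ZNF302 (chr19:34677428-34677727, + strand): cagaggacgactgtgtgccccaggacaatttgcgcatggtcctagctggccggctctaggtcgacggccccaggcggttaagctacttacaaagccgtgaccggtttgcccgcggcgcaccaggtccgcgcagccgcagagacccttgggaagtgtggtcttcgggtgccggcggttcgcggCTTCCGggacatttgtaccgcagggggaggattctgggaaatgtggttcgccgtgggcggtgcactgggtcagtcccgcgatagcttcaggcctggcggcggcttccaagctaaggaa
ZNF181 (chr19:34733993-34734292, + strand): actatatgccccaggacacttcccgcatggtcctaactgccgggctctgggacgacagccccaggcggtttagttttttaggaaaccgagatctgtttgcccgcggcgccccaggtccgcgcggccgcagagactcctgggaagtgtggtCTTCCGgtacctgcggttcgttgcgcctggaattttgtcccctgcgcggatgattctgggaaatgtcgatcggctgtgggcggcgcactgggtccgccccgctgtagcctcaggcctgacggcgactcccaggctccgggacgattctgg

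Transcripts of the family also differed in composition from those of other genes, in GENCODE v29. The median GC content was 42.6% over 179 members with a transcript there, against 49.8% over 14551 other tested genes. The AU-rich word ATTTA occurred at a median of 1.87 per kb of 3′ untranslated region, against 1.60. Members that fell with 3-MB-PP1 alone had a median GC content of 50.4% (n = 17), and those that rose 42.3% (n = 43). With 5-FU alone the order was the other way, at 38.8% for those that fell (n = 12) and 43.5% for those that rose (n = 35). Across members the rank correlation of GC content with the change was weak, 0.23 for 5-FU alone and -0.15 for 3-MB-PP1 alone (n = 179). Shared sequence was limited for most: the median member had 8.28% of its 32-base words in other genes, and 9 of 179 had over 50%.

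Genes listed around the KRAB co-repressor pathway, general chromatin genes among them, moved mostly downward with 5-FU, but TRIM28 and SETDB1 were not called. Of 30 tested genes of a list of 32 that covers TRIM28, its partners, heterochromatin protein 1, histone and DNA methyltransferases and the HUSH complex, none rose and 18 (60.0%) fell with 5-FU alone, against 21.2% and 22.6% of all genes. The list had a median count of 1661, against 393 for all genes, with median standard errors of 0.06 and 0.10 on the log2 scale, and the part of depth in its share of calls was not tested. UHRF1 (-1.70) and DNMT3B (-1.56), which act in DNA methylation, SUV39H1 (-1.33), a histone H3 lysine 9 methyltransferase, and DNMT1 (-1.01) fell most. TRIM28 itself was not called (-0.11 ± 0.05). With 3-MB-PP1 alone 3 rose (10.0%) and 9 fell (30.0%), against 11.6% and 16.9% of all genes, SETDB1 (-0.52), SUV39H1 (-0.43), DAXX (-0.41) and ATF7IP (-0.37) leading. After 5-FU, 3-MB-PP1 gave 10 that rose (33.3%) and 6 that fell (20%), against 15.7% and 17.2% of all genes, among them SETDB1 (-0.81), CBX5 (0.54), SMARCAD1 (-0.37) and ATF7IP (-0.36). SETDB1 had 0.11 with 5-FU alone and was not called there. Whether these changes bear on the zinc finger genes was not tested.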

How the data were processed

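Total RNA of 8 HCT-116 libraries went through rRNA depletion and single-end sequencing, per the labels' protocols. Per the submitters' processing notes, TopHat2 2.0.13 and hg19 were used. No source used here gives the counting program, its strand setting or the annotation. The deposited tables hold, for each transcript, a raw read count made by the authors and an RPKM value that the authors derived from it. A table lists 41735 sequences, 92 of them ERCC spike-ins. Of 6260 transcripts without a symbol, 5902 were named by accession from the RefSeq table of GRCh38.p14, used for names alone. A symbol was represented by its transcript of highest mean count, and starts were turned into 1-based positions.

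Counts of 15714 genes that passed filterByExpr were fitted in edgeR 4.0.16 (R 4.3.3) with TMM scaling and quasi-likelihood F tests, as group means of all 8 libraries with 4 residual degrees of freedom. P-values are two-sided and were adjusted by Benjamini-Hochberg within a comparison over all genes tested, and a gene called at an adjusted p under 0.05 is said to have risen or fallen. Standard errors come from the F statistic. The fit was tested on simulated data. RPKM was used for levels alone. Alternatives were RLE and spike-in scaling, no filter, DESeq2 1.42.0, limma-voom (limma 3.58.1), a replicate block, the longest transcript, each library left out, and a gap of 0.5 Mb between clusters.

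The members and gene lists were chosen with earlier results of these data known. Named genes are the 5 largest rises and falls of each comparison among called members whose libraries lay fully apart, the 5 highest in RPKM in the vehicle, those next to the count minimum, and ZNF91, ZNF274, ZNF331 and ZNF146; ZNF93 and ZNF420 were also listed and lie below the minimum. Other genes were named after their values were seen, because they neighbour these, share calls, or hold a promoter motif. No protein sequences were at hand, so members were not divided by KRAB domain or number of fingers.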

Additional observations from a re-analysis of the deposited data

How the results depend on the processing

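RLE scaling, limma-voom, the replicate block and the longest transcript kept every count of calls within 1.5 times. The replicate numbers did not pair the libraries (correlations of their deviations -0.058 to 0.046), and with the replicate block 51, 64, 63 and 74 members were called with 5-FU alone, with 3-MB-PP1 alone, with 3-MB-PP1 after 5-FU and with both drugs.

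Spike-in scaling, under which ERCC shares of 2.18% to 4.16% differed within groups, left 0, 0, 0 and 2 members called (2 that rose), with medians of 0.19, 0.29, -0.093 and 0.08. The loss was not particular to the family. Of all 15714 genes this scaling called 243, 112, 53 and 427, against 6897, 4480, 5177 and 7881 with TMM. DESeq2 called 32 (22 rose, 10 fell), 37 (23, 14), 34 (22, 12) and 48 (33, 15). Among 20921 genes it called 5256, 2583, 3268 and 6113, also fewer than edgeR. Without the filter 3 members differed in the test of the 5-FU and 3-MB-PP1 interaction, 1 upward and 2 downward.

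With 1 library left out, the counts ranged from 35 to 52 (rose 23 to 38, fell 10 to 15), from 42 to 67 (25 to 46, 13 to 21), from 39 to 64 (21 to 34, 16 to 30) and from 55 to 74 (37 to 51, 18 to 23), and for the interaction from 0 to 3 (rose 0 to 1, fell 0 to 2). The medians ranged from 0.0472 to 0.0885, 0.0924 to 0.1257, 0.00 to 0.02 and 0.06 to 0.09. The lowest counts came without DMSO then DMSO replicate 1 (5-FU alone), DMSO then DMSO replicate 2 (3-MB-PP1 alone and both drugs) and 5-FU then 3-MB-PP1 replicate 2. These fits hold fewer libraries, and they gave fewer calls over all genes too. For the other settings the cause of the change was not tested.

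Of the 52 calls of named members, RLE scaling, limma-voom, the longest transcript and the fit without a filter kept all, DESeq2 lost 6, the replicate block 1 (ZNF274 with 3-MB-PP1 alone, 0.36) and spike-in scaling 50. Over the fits that left out 1 library, 21 of their values lost the call and none changed sign. Values that changed sign belonged to members not called there. They were ZNF91 with 5-FU alone (0.0352 under spike-in scaling) and, over the fits without 1 library, ZNF91 (-0.1928 to 0.0091), ZNF274 (-0.11 to 0.31), ZNF331 (-0.35 to 0.22) and ZNF146 (-0.026 to 0.1705) with 5-FU alone, ZNF331 (-0.40 to 0.18) and ZNF121 (-0.0285 to 0.1114) with 3-MB-PP1 alone, and ZNF331 after 5-FU (-0.36 to 0.13) and with both drugs (-0.45 to 0.13). A gap of 0.5 Mb gave 10 clusters in place of 9, with cluster 9 split between ZNF835 and ZNF264 into parts with unlike shares of falls.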
